A study of Mus musculus with 10 samples.

Results

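Messenger RNA levels of the enzymes that write and erase DNA methylation were followed in mouse embryoid bodies, aggregates in which embryonic stem cells leave pluripotency and begin to differentiate. The genes were taken by symbol from the deposited count table: Dnmt1, Dnmt3a, Dnmt3b, Dnmt3l, Tet1, Tet2, Tet3 and Uhrf1, 8 of 23337 genes. All 8 were present and all 8 passed the filter on low counts, which left 14548 genes for testing.

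The cells come from a line named iHA-Etv2, in which doxycycline induces Etv2 carrying an HA tag. Etv2 is a transcription factor of the ETS family that directs mesoderm toward endothelium and blood. There were 5 groups with 2 libraries each: without doxycycline at day 2, with doxycycline at day 2, without doxycycline at day 2.5, with doxycycline at day 2.5, and Flk1-positive cells with doxycycline at day 2.5. Flk1 is the receptor protein encoded by Kdr, carried on the surface of endothelial and blood precursors. All groups share the inducible line. The remaining 4 groups are labelled negative for the Flk1-positive field, and the labels do not say whether their cells were unsorted or depleted of Flk1-positive cells. Nothing in the labels states that replicates came from separate cultures, so p-values measure the spread between these libraries only, which may be technical.

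DNA methylation is laid down on cytosines, mostly in CpG dinucleotides. Dnmt3a and Dnmt3b encode the methyltransferases that methylate unmodified DNA, and Dnmt3l encodes a relative with no catalytic activity of its own that stimulates them. Dnmt1 copies existing methylation onto the new strand after replication, and Uhrf1 encodes the protein that recognises hemimethylated DNA and brings Dnmt1 to it. Tet1, Tet2 and Tet3 encode dioxygenases that oxidise methylcytosine to hydroxymethylcytosine and beyond, the first step of active demethylation. In the mouse embryo the epiblast gains methylation as it leaves the naive state, and Dnmt3b is one of its abundant transcripts.

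In GRCm38 (the mm10 assembly; GENCODE M21 gene bounds) the catalytic writers lie at chr2:153649450-153687730 on the plus strand (Dnmt3b) and chr12:3806007-3914443 on the plus strand (Dnmt3a). Dnmt3l lies at chr10:78041947-78063622 on the plus strand, Dnmt1 at chr9:20907209-20959888 on the minus strand, and Uhrf1 at chr17:56303321-56323486 on the plus strand. Tet1 lies at chr10:62804570-62908996, Tet2 at chr3:133463679-133545139 and Tet3 at chr6:83362373-83459084, all on the minus strand. Exons of another gene on the opposite strand overlap 2.24% of Dnmt3l exon bases (Aire), 0.799% of those of Dnmt3a (Dnmt3aos) and 0.255% of those of Tet2 (Gm42567). The strand setting of the counting is not given in the sources used here, so reads in those bases cannot be assigned to a strand.

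The promoters of these genes differ widely in the CpG dinucleotides that their products act on. The RefSeq table for GRCm38.p6 matched all 8 genes, with 15 start sites, and the 250 bases before each start were searched. The 4 stretches below belong to the genes whose levels moved most in the results or moved oppositely to each other, each from a start whose window holds no annotated exon. They are written 5′ to 3′ on the gene's strand, with every CpG in capitals.
Dnmt3b, chr2:153649199-153649448, plus strand: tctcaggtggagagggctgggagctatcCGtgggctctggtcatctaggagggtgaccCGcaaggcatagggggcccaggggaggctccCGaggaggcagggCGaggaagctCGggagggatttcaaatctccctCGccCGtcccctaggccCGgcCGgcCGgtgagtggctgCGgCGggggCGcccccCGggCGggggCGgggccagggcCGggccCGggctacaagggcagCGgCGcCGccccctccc
Dnmt3a, chr12:3806730-3806979, plus strand: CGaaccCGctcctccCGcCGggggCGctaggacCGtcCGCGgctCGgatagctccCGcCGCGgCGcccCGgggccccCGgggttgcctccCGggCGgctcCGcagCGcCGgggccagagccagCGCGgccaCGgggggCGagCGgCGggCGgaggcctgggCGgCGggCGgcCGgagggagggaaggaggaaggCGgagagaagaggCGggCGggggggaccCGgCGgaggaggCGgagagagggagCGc
Dnmt3l, chr10:78049592-78049841, plus strand: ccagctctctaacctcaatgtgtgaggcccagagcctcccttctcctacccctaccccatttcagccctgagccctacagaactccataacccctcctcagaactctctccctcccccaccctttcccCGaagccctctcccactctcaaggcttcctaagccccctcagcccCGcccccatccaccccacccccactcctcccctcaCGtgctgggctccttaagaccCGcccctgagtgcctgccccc
Tet2, chr3:133544391-133544640, minus strand: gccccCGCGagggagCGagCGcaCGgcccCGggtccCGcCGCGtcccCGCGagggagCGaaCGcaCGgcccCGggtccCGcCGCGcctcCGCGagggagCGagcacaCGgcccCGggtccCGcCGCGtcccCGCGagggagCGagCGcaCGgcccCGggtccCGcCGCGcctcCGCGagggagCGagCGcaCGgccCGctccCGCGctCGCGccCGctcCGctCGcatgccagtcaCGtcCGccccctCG
The Tet2 stretch holds 51 CpGs, the Dnmt3a stretch 38 and the Dnmt3b stretch 21, whereas the Dnmt3l stretch holds 4. Over all 32817 windows of this length in the table the median was 6 CpGs, and the Tet2 window lay at percentile 99.95. Windows of the same gene could differ as well: those of Dnmt1 held 26, 7 and 2 CpGs, while those of Dnmt3l held 5, 4 and 3. The ETS-type letters CCGGAAG were searched on both strands and occurred in 0 of the 15 windows, against 6.90% of all windows. The E2F-type letters TTCCCGC occurred in 1 of 15 (an Uhrf1 start), against 3.82% of all windows. The third set searched, the SP/KLF-type letters GGGCGG, occurred in at least 1 window of each of the 8 genes and in 32.7% of all windows. These matches describe letters only, and gene-level counts do not separate transcripts from different starts.

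Total counts per library ran from 18074070 to 36068329. Etv2 was at 6.57 to 18.1 CPM (read counts divided by library size, on library sizes scaled by TMM, a method that evens out composition between libraries) without doxycycline and at 255 to 507 CPM with it. Kdr reached 986 to 1008 CPM in the Flk1-positive libraries against 405 to 433 CPM in the other doxycycline libraries of day 2.5. The summed level of 5 epiblast markers (Pou5f1, Sox2, Fgf5, Otx2, Pou3f1) was 1751 to 1890 CPM untreated and 1526 to 2024 CPM with doxycycline at day 2. At day 2.5 it was 1340 to 1460 CPM untreated, 929 to 959 CPM with doxycycline and 894 to 955 CPM in Flk1-positive cells. Pou5f1 holds most of that sum: in Flk1-positive against doxycycline cells 3 of the 5 were called lower (Sox2, Fgf5 and Otx2; list median -1.04, lowest -2.74) while Pou5f1 differed by 0.19 (adjusted p = 0.24). The sum of 5 endothelial markers (Kdr, Cdh5, Pecam1, Tek, Sox18) was 14.1 to 15.2 CPM untreated, 601 to 633 CPM with doxycycline and 1370 to 1454 CPM in Flk1-positive cells at day 2.5. Kdr, which encodes Flk1, holds most of the last 2 of these sums. The step of the sum to Flk1-positive cells is therefore not independent of the Flk1 label. The sum of 4 primitive streak markers (T, Eomes, Mixl1, Mesp1) was 2485 to 2844 CPM untreated, 780 to 806 CPM with doxycycline and 710 to 739 CPM in Flk1-positive cells at day 2.5. Also in that order, the summed blood markers (Gata1, Tal1, Itga2b, Runx1) were at 4.05 to 5.22, 186 to 199 and 667 to 688 CPM. The extraembryonic endoderm markers (Sox17, Gata4, Gata6, Sox7, Foxa2) were at 54.9 to 57.3, 120 to 135 and 279 to 291 CPM. The naive pluripotency markers (Zfp42, Klf4, Esrrb, Tbx3) were at 40.9 to 54.2, 86.7 to 86.8 and 80.8 to 88.3 CPM. The endoderm and naive sums held genes moving in opposite directions. In Flk1-positive against untreated cells the endoderm list had 3 higher and 1 lower (log2 -5.34 to 9.21). The naive list had 2 higher and 1 lower (-1.04 to 2.41), beside 28.6% of all genes called higher and 26.6% lower. In Flk1-positive against doxycycline cells the endothelial and streak lists were mixed too. The endothelial list had 3 higher and 1 lower (log2 -0.63 to 1.51). The streak list had 1 higher and 3 lower (-2.36 to 0.63), beside 20.5% of all genes called higher and 21.3% lower. No epiblast, streak or endothelial marker was at 0 in any library. The part of these marker shifts in the results below was not tested, and in bulk samples fewer cells of a type and less RNA per cell cannot be told apart. The replicates of the doxycycline day 2 group stood apart from each other. Their chi-square per gene was 32.0, against 3.33 to 9.65 in the other groups. The difference between them had a rank correlation of -0.45 with exon length across genes. With GC content that correlation was 0.34 in this group and 0.38 between the Flk1-positive replicates, against -0.035 to 0.033 in the remaining groups.

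The level of Dnmt3b, the highest of the 8 per length in every group, fell with doxycycline, while that of Dnmt3a rose. Dnmt3b measured 2323 and 2304 CPM in the untreated day 2 replicates and 1867 and 2064 CPM with doxycycline at day 2. It measured 2195 and 2017 CPM untreated at day 2.5, 1152 and 1152 CPM with doxycycline, and 844 and 829 CPM in Flk1-positive cells. All 4 doxycycline libraries of day 2.5 thus lay below all 6 others, and the Flk1-positive pair lay lowest. At day 2.5 doxycycline was associated with a log2 fold change of -0.87 ± 0.08 (SE; edgeR adjusted p = 9.74e-07), 1.83-fold lower than untreated. Flk1-positive cells lay a further 1.38-fold below the doxycycline libraries (log2 -0.46 ± 0.08, adjusted p = 0.000395). Against untreated day 2.5 embryoid bodies they lay 2.52-fold lower (log2 -1.33 ± 0.08, adjusted p = 3.04e-09). These contrasts share libraries and are not independent of each other.

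Dnmt3a moved the opposite way. It measured 368 and 362 CPM untreated and 422 and 467 CPM with doxycycline at day 2. The day 2.5 levels were 316 and 309 CPM untreated, 506 and 512 CPM with doxycycline, and 619.7 and 611 CPM in Flk1-positive cells. At each day the doxycycline libraries lay above the untreated libraries with no overlap. The rise with doxycycline at day 2.5 was 1.63-fold (log2 0.71 ± 0.08, adjusted p = 9.42e-06), and Flk1-positive cells lay 1.97-fold above untreated cells (log2 0.98 ± 0.08, adjusted p = 9.35e-08). With trends on exon length and GC content removed from each library, the rise with doxycycline at day 2.5 was 0.40 on the log2 scale (adjusted p = 8.33e-05), or 0.55 above the median of all genes, which that correction moved to -0.14. For Flk1-positive against untreated cells it was then 0.66 (adjusted p = 6.88e-08), or 0.76 above the median of all genes, itself at -0.10. The smaller step from doxycycline libraries to Flk1-positive cells (log2 0.27 ± 0.08, adjusted p = 0.0141) missed the threshold when any of the 4 libraries compared was left out. The adjusted p was then 0.109 without doxycycline replicate 1, 0.0877 without replicate 2, 0.0763 without Flk1-positive replicate 1 and 0.0583 without Flk1-positive replicate 2.

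**Figure D1:**
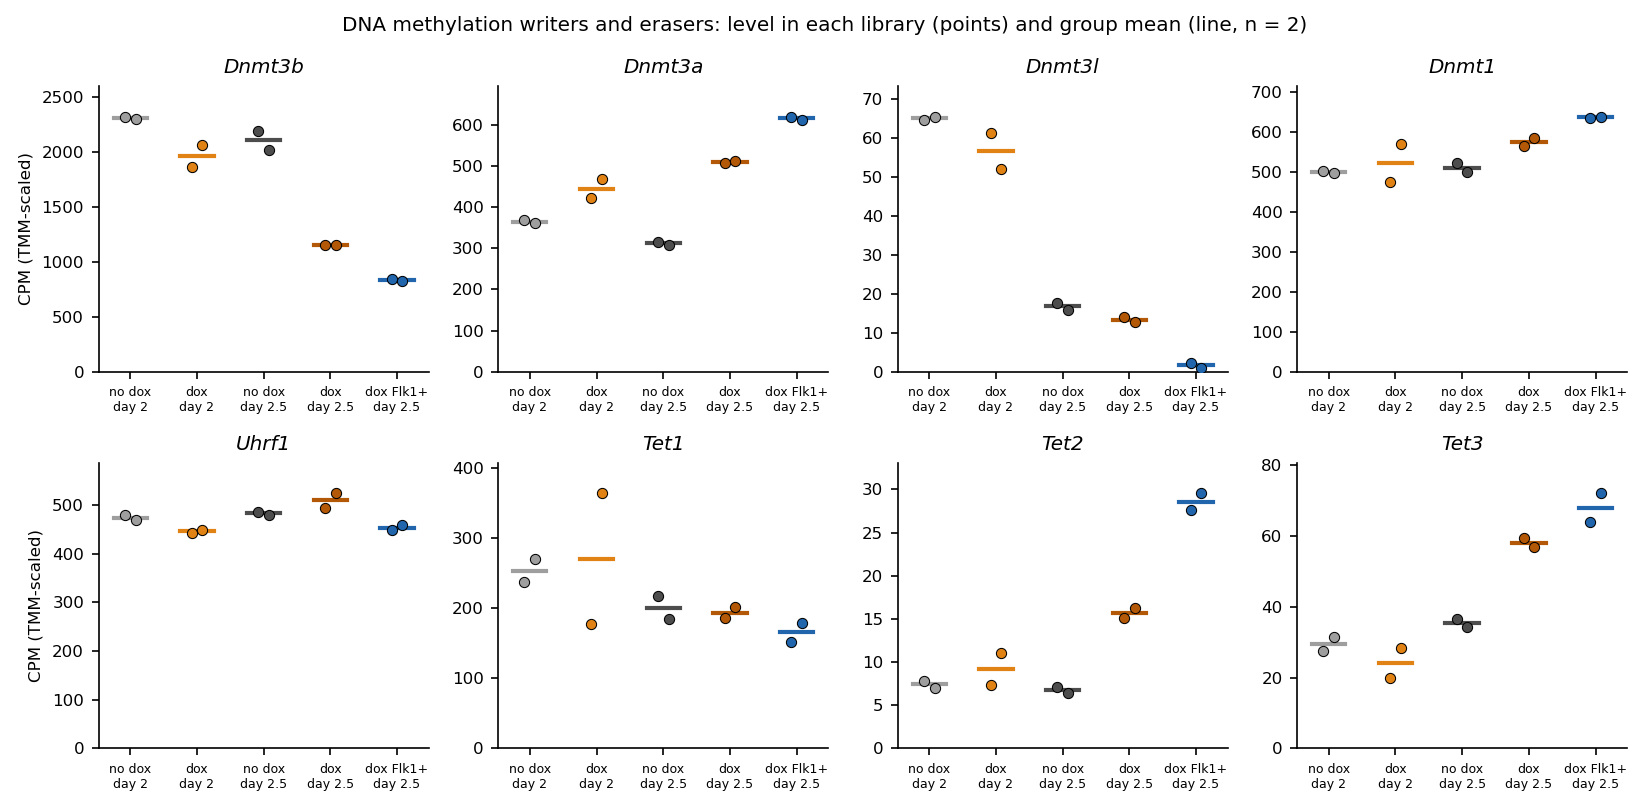
Level of each gene in CPM (y axis, from 0, its own scale per panel) in the 5 groups (x axis), with 1 point per library and a line at the mean of 2. Dnmt3b is lowest and Dnmt3a, Tet2 and Tet3 are highest in the Flk1-positive libraries, Dnmt3l falls to 2.19 and 1.06 CPM there, and the Tet1 replicates of the doxycycline day 2 group lie far apart.

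The balance of the 2 catalytic writers within a library needs no scaling between libraries. The ratio of Dnmt3a to Dnmt3b counts was 0.158 and 0.157 untreated and 0.226 and 0.226 with doxycycline at day 2. At day 2.5 it was 0.144 and 0.153 untreated, 0.439 and 0.445 with doxycycline, and 0.734 and 0.737 in Flk1-positive cells. The replicates of each group lay close together, including those of the doxycycline day 2 group, and no 2 groups overlapped. A ratio within a library shows unequal change and does not say which gene changed.

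Dnmt3l, the cofactor, showed the widest range of the 8. It measured 64.8 and 65.5 CPM untreated and 61.4 and 52.0 CPM with doxycycline at day 2. By day 2.5 the level was 17.6 and 16.0 CPM untreated, 14.0 and 12.7 CPM with doxycycline, and 2.19 and 1.06 CPM in Flk1-positive cells, the last pair resting on 53 and 20 counts. Both day 2 groups lay above all libraries of day 2.5. Group means of log2 CPM spanned 5.34, at percentile 99.34 of the spans of all genes tested. Without doxycycline the fall from day 2 to day 2.5 was 3.88-fold (log2 -1.96 ± 0.16, adjusted p = 5.86e-06), and with doxycycline it was 4.24-fold (log2 -2.08 ± 0.16, adjusted p = 1.53e-07). The difference between these falls was -0.13 on the log2 scale with a 95% interval of -0.60 to 0.34 (adjusted p = 0.765). At day 2.5 doxycycline and untreated libraries differed by -0.33 ± 0.16 (adjusted p = 0.145), which did not pass the threshold. This difference was called lower with length and GC trends removed (-0.45, adjusted p = 0.00974; -0.31 against the median of all genes). It was also called with no low-count filter (-0.37, adjusted p = 0.048). Under 13 of the 20 alternatives it stayed negative and uncalled. Flk1-positive cells lay 7.95-fold below the doxycycline libraries (log2 -2.99 ± 0.22, adjusted p = 8.57e-08). That value was -3.64 without Flk1-positive replicate 1 and -2.60 without Flk1-positive replicate 2. Against untreated cells (log2 -3.32) the corresponding values were -4.01 and -2.97.

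The maintenance pair moved little. Dnmt1 ranged from 475 to 569 CPM at day 2, from 499.6 to 521 CPM untreated at day 2.5 and from 565 to 585 CPM with doxycycline, and was at 634 and 638 CPM in Flk1-positive cells. Flk1-positive cells lay 1.25-fold above untreated day 2.5 embryoid bodies (log2 0.32 ± 0.09, adjusted p = 0.00813). This call was lost with length and GC trends removed (log2 0.05, adjusted p = 0.597; 0.15 above the median of all genes, itself at -0.10), and without Flk1-positive replicate 1 (adjusted p = 0.0689), Flk1-positive replicate 2 (0.0799) or untreated replicate 2 (0.0658). Under the same edgeR settings Dnmt1 passed the threshold in no other comparison. Uhrf1 stayed between 442 and 524 CPM in all 10 libraries and passed the threshold in none of the 7 comparisons under those settings. Its value between days with doxycycline (log2 0.19 ± 0.08, adjusted p = 0.0576) was called higher by DESeq2 (log2 0.20, adjusted p = 0.0441), by limma-voom (0.19, adjusted p = 0.0430), with upper-quartile scaling (0.21, adjusted p = 0.0356) and without doxycycline day 2 replicate 2 (0.20, adjusted p = 0.0242). For Flk1-positive against doxycycline cells (log2 -0.17) it was called lower with upper-quartile scaling (-0.21, adjusted p = 0.0396), with only the groups compared (-0.17, adjusted p = 0.0258) and without doxycycline day 2 replicate 1 (-0.17, adjusted p = 0.0210) or 2 (-0.17, adjusted p = 0.0211), among others. Its group means of log2 CPM spanned 0.19, at percentile 1.84 of the spans of all genes. For Flk1-positive against untreated cells its 95% interval was -0.26 to 0.08 on the log2 scale, although with length and GC trends removed it was called lower (log2 -0.25, adjusted p = 0.00431; 0.15 under the median of all genes).

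Uhrf1 and Dnmt1 act at replicating DNA, and 20 genes of DNA replication and cycling were set beside them. Their summed level was 7583 to 7590 CPM untreated and 7270 to 7678 CPM with doxycycline at day 2. The sum at day 2.5 was 7042 to 7074 CPM untreated, 6865 to 7015 CPM with doxycycline and 6527 to 6814 CPM in Flk1-positive cells. In Flk1-positive against untreated cells 1 of 20 rose and 11 fell, beside 28.6% of all genes called higher and 26.6% called lower, with a list median of -0.25 (median of all genes 0.01). Ccne1, the cyclin of entry into S phase, fell by 1.04 ± 0.08 on the log2 scale (adjusted p = 4.11e-08) and Mcm4, a subunit of the replicative helicase, fell by 0.62 ± 0.09 (adjusted p = 2.17e-05). Top2a, a topoisomerase of dividing cells, rose by 0.58 ± 0.09 (adjusted p = 8.59e-05).

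Among the erasers, Tet2 and Tet3 rose with doxycycline at day 2.5 and Tet1 was called in no comparison under the edgeR settings used throughout. Tet2 measured 7.80 and 7.04 CPM untreated and 7.32 and 11.1 CPM with doxycycline at day 2. At day 2.5 it measured 7.05 and 6.38 CPM untreated, 15.1 and 16.2 CPM with doxycycline, and 27.6 and 29.6 CPM in Flk1-positive cells. All 4 doxycycline libraries of day 2.5 lay above the 6 others. The rise with doxycycline at day 2.5 was 2.33-fold (log2 1.22 ± 0.19, adjusted p = 0.000127). Flk1-positive cells lay 1.82-fold above the doxycycline libraries (log2 0.86 ± 0.17, adjusted p = 0.000995) and 4.25-fold above untreated ones (log2 2.09 ± 0.19, adjusted p = 1.81e-07).

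Tet3 measured 27.6 and 31.6 CPM untreated and 19.7 and 28.3 CPM with doxycycline at day 2. Levels at day 2.5 were 36.5 and 34.1 CPM untreated, 59.4 and 56.8 CPM with doxycycline, and 63.9 and 72.1 CPM in Flk1-positive cells. Here too the doxycycline libraries of day 2.5 lay above all others. Doxycycline at day 2.5 went with a 1.65-fold higher level (log2 0.72 ± 0.14, adjusted p = 0.00122). With length and GC trends removed this was 0.42 on the log2 scale (adjusted p = 0.00463), or 0.56 above the median of all genes. Flk1-positive cells lay 1.92-fold above untreated ones (log2 0.94 ± 0.14, adjusted p = 4.65e-05; 0.61 with the trends removed). Their difference from the doxycycline libraries was 0.23 ± 0.14 (adjusted p = 0.209), with a 95% interval of -0.07 to 0.52.

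Tet1, the most abundant Tet transcript per length in every group, measured 237 and 269.9 CPM untreated at day 2 and 177 and 364 CPM with doxycycline. Values at day 2.5 were 217 and 184 CPM untreated, 186 and 201 CPM with doxycycline, and 152 and 179 CPM in Flk1-positive cells. The doxycycline day 2 replicates differed 2.05-fold and enclosed both untreated day 2 values. Flk1-positive against untreated cells differed by -0.28 ± 0.24 on the log2 scale, with a 95% interval of -0.81 to 0.25 (adjusted p = 0.353). Without doxycycline day 2 replicate 1 or 2, libraries outside this comparison, the value stayed at -0.28, with an SE of 0.084 or 0.085. The fit shares 1 estimate of the spread per gene over all groups, the doxycycline day 2 pair among them. Leaving one of that pair out also changed the number of genes tested, to 15020 or 15036. The cause of the smaller SE was not tested. Tet1 was called lower in Flk1-positive than in untreated cells with only the groups compared (log2 -0.30, adjusted p = 0.0076). So it was with no low-count filter (log2 -0.32, adjusted p = 0.0055) and with length and GC trends removed (log2 -0.49, adjusted p = 0.0405).

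**Figure D2:**
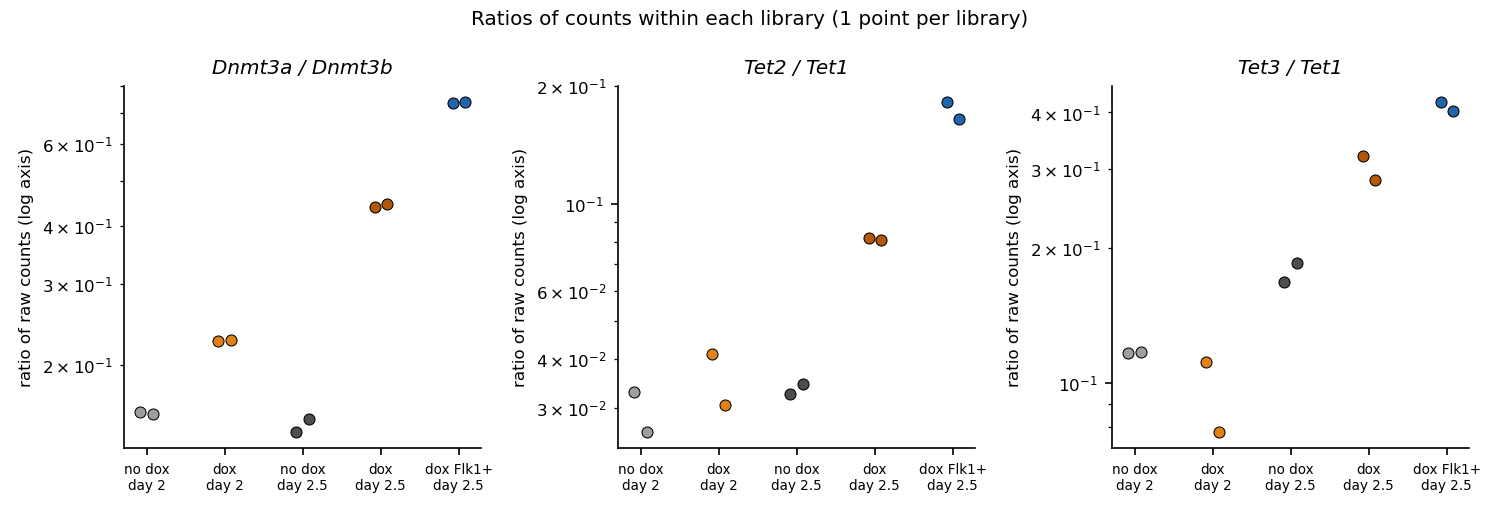
Ratios of raw counts within each library (y axes, log scale) for Dnmt3a over Dnmt3b, Tet2 over Tet1 and Tet3 over Tet1 in the 5 groups (x axis), with 1 point per library. Each ratio is highest in the Flk1-positive pair, and the doxycycline day 2 replicates agree for Dnmt3a over Dnmt3b (0.226 and 0.226) but not for the Tet ratios.

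Within libraries the ratio of Tet2 to Tet1 counts was 0.0330 and 0.0261 untreated and 0.0413 and 0.0305 with doxycycline at day 2. The day 2.5 ratios were 0.0325 and 0.0346 untreated, 0.0816 and 0.0807 with doxycycline, and 0.182 and 0.165 in Flk1-positive cells. For Tet3 over Tet1 the untreated day 2 replicates both gave 0.117, against 0.111 and 0.0780 in their doxycycline counterparts. The ratio of Tet3 to Tet1 was 0.168 and 0.185 untreated, 0.320 and 0.282 with doxycycline, and 0.421 and 0.403 in Flk1-positive cells at day 2.5. Both ratios therefore ordered the 3 groups of day 2.5 the same way, without overlap.

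Levels of different genes were compared per kilobase of the longest coding transcript. Dnmt3b led in each group, at 535.5 ± 3.05 CPM per kb (SD, n = 2) untreated at day 2 and 194 ± 2.5 in Flk1-positive cells. Uhrf1, Dnmt1 and Dnmt3a followed in that order in each group. Untreated at day 2 they were at 132, 85.2 and 37.7 CPM per kb, and in Flk1-positive cells at 126, 108 and 63.6. Dnmt3l came next at day 2 (35.8 ± 0.29 CPM per kb untreated), just below Dnmt3a, and last in Flk1-positive cells (0.89 ± 0.44), below Tet2 (3.11 ± 0.15). No gene overlapped its neighbour in this order in any group. With summed exon length in place of the transcript, the group means kept the order but single libraries overlapped: Dnmt3l (21.9 CPM per kb) lay above Dnmt3a (21.7) in untreated day 2 replicate 2, and Tet1 (23.5) above Dnmt3l (17.4) in doxycycline day 2 replicate 2.

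**Figure D3:**
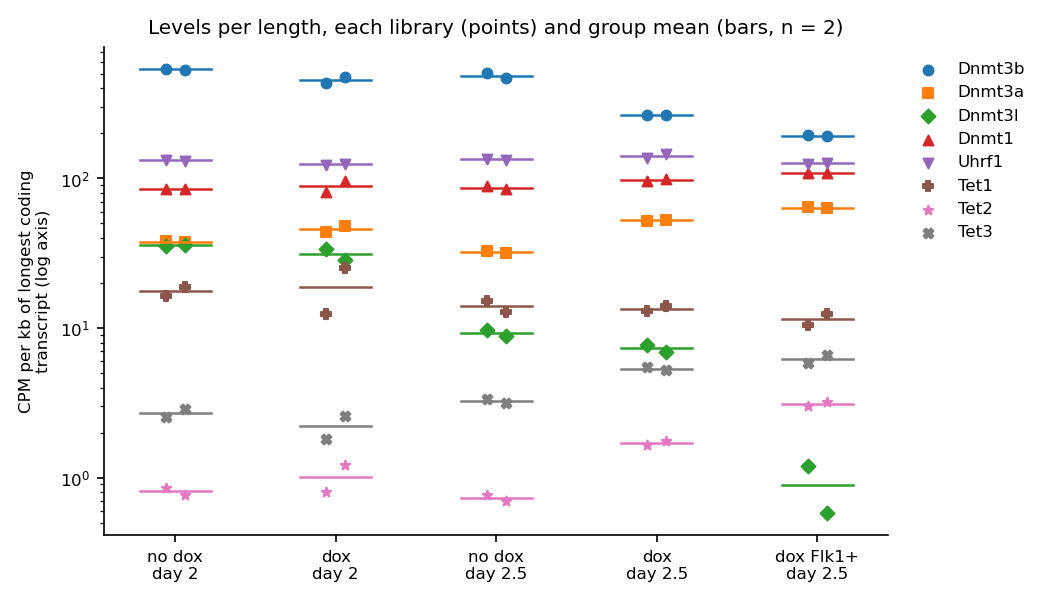
Level per length of each gene (y axis, CPM per kb of the longest coding transcript, log scale) in the 5 groups (x axis), with points for libraries and bars for the mean of 2. Dnmt3b stays on top at 194 to 535.5 CPM per kb, whereas Dnmt3l drops from above Tet1 at day 2 to below Tet2 in Flk1-positive cells.

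Counted over the set, doxycycline at day 2 changed 0 of 8 genes in edgeR, where 4.67% of all genes were called (3.11% higher, 1.56% lower). The replicate values of the 2 groups did not overlap for 4 of 8, beside 42.8% of all genes. At an unadjusted p under 0.05 there were 2, Dnmt3a (log2 0.29 ± 0.08, adjusted p = 0.0629) and Dnmt3b (log2 -0.24 ± 0.08, adjusted p = 0.133). DESeq2 called 1, beside 535 higher and 343 lower of all 14548 genes, and limma-voom 0, beside 384 and 221. The number called rose when either doxycycline day 2 replicate was left out, and so did the number called over all genes. Tet1 stood at log2 0.52 without replicate 1 and at -0.51 without replicate 2, so its direction there rests on which replicate is kept.

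At day 2.5 doxycycline changed 4 of 8, with 3 higher and 1 lower, beside 29.9% of all genes (16.1% higher, 13.8% lower). Values did not overlap for 7 of 8, beside 68.9% of all genes. Flk1-positive against doxycycline libraries gave 2 higher (Dnmt3a, Tet2) and 2 lower (Dnmt3b, Dnmt3l), beside 41.8% of all genes (20.5% higher, 21.3% lower), and no overlap for 8 of 8, beside 75.5%. That count of calls rose when either doxycycline day 2 replicate, outside the comparison, was left out, and so did the number called over all genes. The cause was not tested. Flk1-positive against untreated libraries gave 4 higher and 2 lower, beside 55.3% of all genes (28.6% higher, 26.6% lower), and no overlap for 8 of 8, beside 79.2%. With 8 genes these shares single out nothing about the set.

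**Figure D4:**
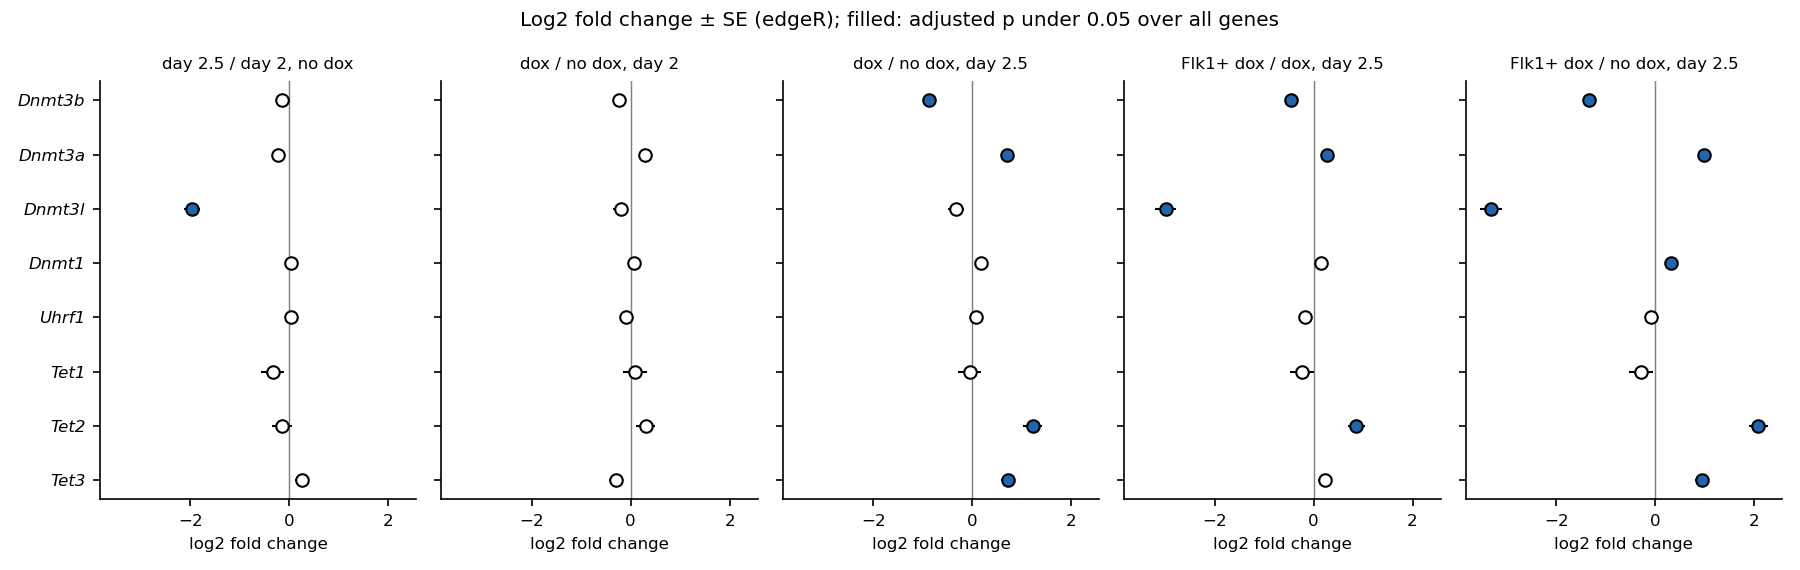
Log2 fold change of each gene (x axis, bars are SE from edgeR) in 5 comparisons (panels), with filled points for an adjusted p under 0.05 over all genes tested. Dnmt3l alone is called between the untreated days, none is called for doxycycline at day 2, and Dnmt3b and Dnmt3a part in opposite directions in the 3 comparisons of day 2.5.

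Between day 2 and day 2.5 without doxycycline only Dnmt3l was called, 1 of 8 beside 19.5% of all genes (9.22% higher, 10.3% lower). Values did not overlap for 6 of 8, beside 65.7%. The number called rose without doxycycline day 2 replicate 1 or 2, which again lie outside the comparison, and so did the number over all genes. The cause was not tested. In both fits Dnmt3a stood at log2 -0.23 ± 0.06 and Tet1 at log2 -0.34 ± 0.08. With doxycycline 4 of 8 were called over the same interval, beside 46.0% of all genes (22.9% higher, 23.1% lower), with no overlap for 6 of 8, beside 70.2%. Dnmt3b fell by 0.77 ± 0.08 on the log2 scale (adjusted p = 3.86e-06) and Dnmt3l fell as given above. Tet2 rose by 0.77 ± 0.18 (adjusted p = 0.00295; 0.39 with length and GC trends removed, adjusted p = 0.0303) and Tet3 by 1.27 ± 0.15 (adjusted p = 7.11e-06). The number of the 8 called rose without doxycycline day 2 replicate 2, as did the number called over all genes. For Dnmt3a the value was 0.19 ± 0.08 (adjusted p = 0.0632), and it turned to -0.22 with length and GC trends removed (adjusted p = 0.0103; -0.14 against the median of all genes).

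Whether the doxycycline response differed between the days was tested as an interaction, which called 4 of 8 genes beside 12.1% of all genes (6.87% higher, 5.24% lower). The response of Dnmt3b was more negative at day 2.5 than at day 2 by 0.64 on the log2 scale (interaction -0.64 ± 0.12, adjusted p = 0.00204). That of Tet3 was more positive by 1.02 ± 0.21 (adjusted p = 0.00423; 0.62 with length and GC trends removed, or 0.74 against the median of all genes). Dnmt3b and Tet3 passed under each of the 20 alternatives tried. Dnmt3a (0.42 ± 0.12, adjusted p = 0.0272) missed the threshold under 11 of the 20, among them length and GC trends removed (0.02, adjusted p = 0.912), and Tet2 (0.92 ± 0.27, adjusted p = 0.0365) under 12. The number of the 8 called fell when any 1 library of the 4 groups other than doxycycline day 2 was left out. The number called over all genes fell too.

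Genes whose levels ran most nearly parallel to a member over the 10 libraries were listed for the 4 genes whose group means of log2 CPM spanned at least 1. There were 6097 candidates with such a span. The 10 points are 5 pairs of replicates, so a shared order of groups sets most of each coefficient. For Dnmt3b these were Pphln1 (Pearson r = 0.997), Pip4k2b (0.995) and Ccnd1 (0.994), the last a cyclin of early G1 phase. For Dnmt3l they were Tdrd12 (0.994), a Tudor-domain gene of the germline piRNA pathway, Perp (0.991) and Fbxo15 (0.990), a gene marking undifferentiated embryonic stem cells. For Tet2 they were Srgap2 (0.994), Gata6 (0.993) and Il1rl1 (0.992), and for Tet3 Prex2 (0.991), Chd2 (0.988) and St6galnac3 (0.988).

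Beyond the writers and erasers themselves, 21 genes for partners and inhibitors of the enzymes were examined. With doxycycline at day 2.5, 0 rose and 6 fell, beside 16.1% of all genes called higher and 13.8% called lower, with a list median of -0.07. The number lower was 2 to 12 over the alternatives. Cdca7l, a relative of the Cdca7 activator of the remodeller Hells, fell by 0.76 ± 0.10 on the log2 scale (adjusted p = 3.65e-05), and Naa10, an acetyltransferase subunit, fell by 0.60 ± 0.11 (adjusted p = 0.000819). In Flk1-positive against doxycycline cells 3 rose and 6 fell, beside 20.5% and 21.3% of all genes. Zfp57, the zinc-finger protein that guards methylation at imprinted loci, measured 45.1 and 44.6 CPM with doxycycline and 157 and 158 CPM in Flk1-positive cells (log2 1.82 ± 0.09, adjusted p = 3.06e-09). Ogt, the glycosyltransferase that binds Tet proteins, rose by 0.84 ± 0.10 (adjusted p = 8.14e-06). Dppa3, which shields methylation in the zygote and counters Uhrf1, had 59 and 78 counts with doxycycline and 0 and 4 in Flk1-positive cells. Prdm14, a repressor of the de novo enzymes in naive cells, was named after its values were seen: it had 46 counts in the doxycycline pair and 0 in both Flk1-positive libraries, at least 9.30-fold lower with 3 counts over the Flk1-positive pair as the floor.

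The list of methyl-CpG readers holds 12 genes, among them Cxxc1 and Kdm2b, whose products bind unmethylated CpG. In Flk1-positive against untreated cells 5 of 12 rose, 0 fell and 7 were not called, beside 28.6% of all genes called higher and 26.6% called lower, with a list median of 0.35. The number higher was 2 to 6 and the number lower 0 to 3 over the alternatives. Mbd1, a methyl-CpG binding repressor, measured 17.6 and 16.0 CPM untreated, 21.5 and 18.9 CPM with doxycycline and 39.9 and 40.2 CPM in Flk1-positive cells (log2 1.25 ± 0.13 against untreated, adjusted p = 8.3e-07). Among 14 genes of methyl donor and oxoglutarate metabolism, which supply the substrates of both enzyme families, 0 rose and 7 fell with doxycycline at day 2.5 (list median -0.27), beside 13.8% of all genes called lower. The number lower was 3 to 9 over the alternatives. Mat2a, which makes S-adenosylmethionine, measured 393 and 358 CPM untreated, 249 and 232 CPM with doxycycline and 398 and 425 CPM in Flk1-positive cells. It fell by 0.64 ± 0.09 with doxycycline (adjusted p = 4.69e-05) and lay 0.78 ± 0.09 higher in Flk1-positive than in doxycycline cells (adjusted p = 7.17e-06).

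Of 13 genes for the repair of oxidised bases 12 could be tested. Tdg, the glycosylase that excises oxidised methylcytosine, had 0 to 3 counts in every library and was not tested; how reads mapping to several places were counted is not given in the sources used here. In Flk1-positive against untreated cells 3 rose and 4 fell, beside 28.6% of all genes called higher and 26.6% called lower. Gadd45g had 2 and 19 counts untreated and 1747 and 1354 counts in Flk1-positive cells. Gadd45a rose with doxycycline already at day 2 (log2 1.74 ± 0.15, adjusted p = 2.05e-06). No other gene of this list was called in that day 2 comparison, where 3.11% of all genes were called higher and 1.56% lower. Both are best known as stress and growth-arrest genes rather than as repair enzymes. Neil3, a base-excision glycosylase, rose by 1.35 ± 0.13 (adjusted p = 3.54e-07).

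Germline genes whose promoters are textbook targets of methylation in somatic cells were the last list, with 14 of 17 tested. With doxycycline at day 2.5, 2 rose and 0 fell, beside 16.1% and 13.8% of all genes. In Flk1-positive against doxycycline cells 1 rose and 7 fell, beside 20.5% of all genes called higher and 21.3% called lower, with a list median of -0.80 (median of all genes 0.00). Rhox5, an X-linked homeobox gene, measured 26.1 and 28.7 CPM with doxycycline and 6.15 and 7.63 CPM in Flk1-positive cells (log2 -2.0 ± 0.17, adjusted p = 4.21e-07). Mael, a piRNA-pathway gene, fell by 1.69 ± 0.34 (adjusted p = 0.00112). Sycp1, of the synaptonemal complex, rose by 1.57 ± 0.32 (adjusted p = 0.00124) at 1.59 to 6.78 CPM. DNA methylation itself was not among the measurements used here.

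**Figure D5:**
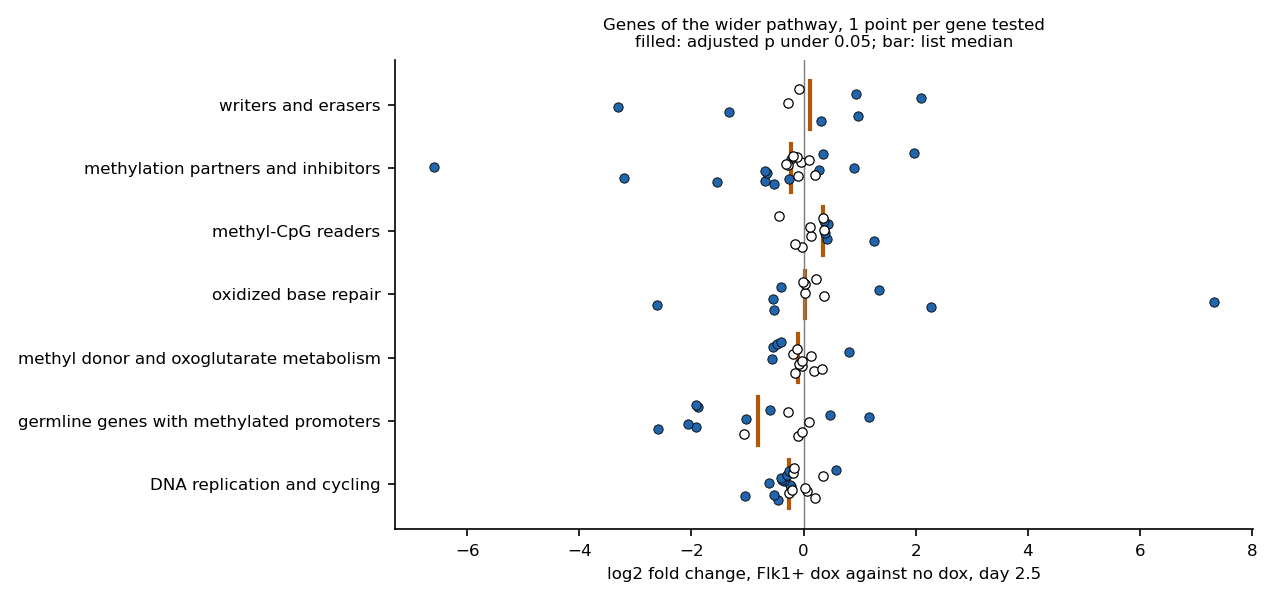
Log2 fold change of Flk1-positive doxycycline against untreated libraries at day 2.5 (x axis) for each tested gene of the 8 writers and erasers and of 6 wider lists (rows), filled where the adjusted p is under 0.05, with a bar at the list median. The germline list has its median at -0.81 and the methyl-CpG readers at 0.35, and the writers and erasers spread from -3.32 (Dnmt3l) to 2.09 (Tet2), while the leftmost point, Prdm14, rests on 0 counts in Flk1-positive cells and its fitted value is no bound.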

How the data were processed

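The authors deposited raw counts per gene for 10 bulk RNA-seq libraries. TopHat, HTSeq and DESeq2 and the mm10 build are named, without versions or roles, per the submitters' processing notes; these sources do not give the annotation, the strand setting or the treatment of multi-mapping reads. The deposited table held 23429 entries, of which 92 spike-ins with 0 counts were left out.

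Counts were fitted in R 4.3.3 with edgeR 4.0.16 (quasi-likelihood, robust, TMM, filterByExpr with minimum count 10 and minimum total 15), with 1 mean per group over all 10 libraries, 5 residual degrees of freedom and 7 comparisons. Adjusted p-values are Benjamini-Hochberg over all 14548 genes, threshold 0.05; SEs come from the F statistic and intervals are 95%. CPM use TMM-scaled totals, and depth limits each level to a floor of 3 counts in a library. The 20 alternatives include DESeq2 1.42.0 and limma-voom (limma 3.58.1), other scalings, no filter, length and GC trends removed, thinning and leaving out each library. The script was tested on simulated data.

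The members and lists were chosen with earlier results of these data known. Up to 4 genes per wider list and comparison, by smallest adjusted p, were open to naming, and the 3 nearest patterns by Pearson r for each member spanning at least 1 on the log2 scale. Promoter sequences are RefSeq, GRCm38.p6; gene bounds and lengths are GENCODE M21.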

Additional observations from a re-analysis of the deposited data

Results flagged for a closer look

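By the interaction term in edgeR, the doxycycline response was called different between day 2 and day 2.5 for 4 writers and erasers and 5 genes of the wider lists. Of all genes 12.1% were called. The log2 response at day 2.5 minus that at day 2 was -0.64 for Dnmt3b, 0.42 for Dnmt3a, 0.92 for Tet2 and 1.02 for Tet3. With length and GC trends removed, Dnmt3a (0.02, adjusted p = 0.912) and Tet2 (0.59, adjusted p = 0.0546) missed the threshold. The difference was 4.69 ± 0.54 for Gadd45g (adjusted p = 4.61e-05), whose untreated day 2.5 libraries held 2 and 19 counts. For Mat2a it was -0.68 ± 0.12 (adjusted p = 0.00204) and for Ccne1 -0.53 ± 0.11 (adjusted p = 0.00619). For Naa10 it was -0.60 ± 0.16 (adjusted p = 0.0222) and for Ddx4 0.72 ± 0.16 (adjusted p = 0.009). The doxycycline day 2 replicates, which enter each of these differences, stood apart from each other by a chi-square per gene of 32.0; the part of that gap in these values was not tested.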

How the results depend on the processing

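The calls of Dnmt3b, Dnmt3a, Tet2 and Tet3 for doxycycline at day 2.5, of these and Dnmt3l for Flk1-positive against untreated cells, and of Dnmt3b, Dnmt3l, Tet2 and Tet3 between days with doxycycline held their direction and threshold under all 20 alternatives.

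The proportionally largest moves in the number of the 8 genes called follow, with the numbers of all 14548 genes called higher and lower in parentheses. Smaller moves are not listed in full. With length and GC trends removed, the number was 6 between days with doxycycline (2968 and 4477), against 4 (3337 and 3361). It was then 5 for doxycycline at day 2.5 (1988 and 4466), against 4 (2349 and 2001). For Flk1-positive against untreated cells it was 7 (3706 and 5089), against 6 (4167 and 3873). The cause was not tested. For doxycycline at day 2 (0, beside 453 higher and 227 lower) it was 1 with DESeq2 (535 and 343). It was 2 with length and GC trends removed (649 and 529) and 2 with the replicate block added to that (740 and 639). Between untreated days (1, beside 1342 and 1494) it was 2 with no low-count filter (1769 and 1666 of 18526). With only the groups compared it was 3 (2299 and 2276 of 13677). It was 2 with trends removed (2223 and 1809) and 2 with the block added (2348 and 1930). For Flk1-positive against doxycycline (4, beside 2982 and 3104) it was 7 with only the groups compared (3843 and 3807 of 14259). For the interaction (4, beside 1000 and 763) it was 2 with trends removed (983 and 2452) and 2 with the block added (1051 and 2669). Leaving out single libraries also moved the number of the 8 called in each comparison, and the number called over all genes moved as well. Those fits leave 1 library in a group, so their counts say nothing particular about the 8 genes.

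Directions reversed with length and GC trends removed, and again with the replicate block added, for Dnmt1 between days with doxycycline (log2 -0.086 and -0.084), Dnmt1 (-0.053 and -0.054) and Uhrf1 (-0.083 and -0.084) for doxycycline at day 2.5, Dnmt1 in the interaction (-0.13 and -0.13), and Dnmt3a between days with doxycycline (-0.22 and -0.22). Removing the trends also moved the median of all genes, to -0.14 for doxycycline at day 2.5, -0.08 between days with doxycycline and -0.12 in the interaction. Against that median Dnmt1 (0.089) and Uhrf1 (0.059) for doxycycline at day 2.5 kept their sign, Dnmt1 stood at -0.0015 between days with doxycycline and -0.0058 in the interaction, and Dnmt3a stood at -0.14. Leaving out single libraries turned the sign of uncalled values: Tet1 ranged from -0.91 to 0.12 between days with doxycycline, from -0.51 to 0.52 for doxycycline at day 2, from -0.17 to 0.069 at day 2.5 and from -0.57 to 0.46 in the interaction. Dnmt1 ranged from -0.074 to 0.18 for doxycycline at day 2, from -0.013 to 0.24 in the interaction and from -0.0016 to 0.060 between untreated days, and Tet2 from -0.023 to 0.58 for doxycycline at day 2.

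The labels do not say whether the replicate numbers pair the samples. Deviations of same-numbered libraries correlated by -0.03 to 0.10 across groups, which cannot show whether such libraries shared a culture. The replicate block alone changed no count of the 8 genes called. For doxycycline at day 2.5 it stayed at 4 of 8, beside 2412 higher and 2089 lower of all genes.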
